A study of Homo sapiens with 4 samples.

Results

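The genes described here are 32 host genes of small nucleolar RNAs (snoRNAs), without SNHG1, of 62062 genes that GENCODE release 44 places on chromosomes 1 to 22 and X. They were taken from the annotation by name: 27 are called SNHG followed by a number, and GAS5, ZFAS1, EPB41L4A-AS1, DANCR and TAF1D make up the other 5. The rule uses names and no measured value, though it was set with earlier results of these data known. Of the 32, 31 are long non-coding RNA (lncRNA) genes and TAF1D codes for protein, and they lie on 15 chromosomes. Chromatin accessibility at their promoters was read from ATAC-seq, in which the Tn5 transposase cuts open chromatin and leaves sequencing adapters there, so that accessible regions collect many fragments.

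The cells were SK-N-BE(2)C, an established neuroblastoma line with amplified MYCN. The control (sgCtrl) cells, wildtype by label, had received Cas9 with a non-targeting guide RNA, and the sgSNHG1 cells, labelled SNHG1 knockout, had received Cas9 with a pair of guide RNAs around SNHG1. The protocol is given for both groups alike: a reporter of cutting was transfected together with Cas9, puromycin removed untransfected cells, and clones were grown from cells sorted singly. How many clones stand behind the 2 ATAC-seq replicates of a group is not given in the sources used here. The paper describes several SNHG1-depletion clones and a single non-targeting control clone, without saying which were used for ATAC-seq. Differences between clones therefore cannot be told apart from differences between the groups. The authors combined the 2 replicates before peak calling, so 1 peak list per group was available, with 47610 peaks for control and 42682 for sgSNHG1. There is therefore no replicate spread and no test between the groups in what follows: every difference describes these 2 pooled libraries, with an error that covers counting only. SNHG1 itself had 1 promoter peak in each list, with fold enrichments of 5.71 (control) and 6.04 (sgSNHG1). Such a peak does not check a knockout of the transcript. In the check of the cell type, 6 of 7 sympathetic and adrenergic genes (HAND2, GATA3, ISL1, DBH, CHGA and STMN2, without TH) had a promoter peak in both lists. All 6 had a lower fold enrichment in sgSNHG1, with a median log2 ratio of -0.26 (-0.48 for CHGA, -0.37 for DBH), beside -0.07 over all genes, and each lay within 2 counting standard errors of 0. None of 4 blood, 2 endothelial and 2 hepatocyte markers had one in either list. Of 2 epithelial markers, EPCAM had a promoter peak in both lists (8.86 and 11.3, log2 ratio 0.35 with a counting standard error of 0.26) and CDH1 in control alone (4.03); the part of this in the values below was not tested.

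SnoRNAs guide the chemical modification of ribosomal RNA, the C/D class for 2′-O-methylation and the H/ACA class for pseudouridylation, and the related scaRNAs do the same for spliceosomal RNAs in Cajal bodies. In vertebrates most of them are cut from the introns of a host transcript after splicing. The supply of the guide thus depends in part on the activity of the host promoter. Levels of snoRNAs were not measured here. Many non-coding hosts carry a terminal oligopyrimidine (TOP) start, a C followed by a run of pyrimidines, as ribosomal protein genes do, and their spliced transcripts are often removed by nonsense-mediated decay.

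GENCODE names 141 snoRNA genes on the strand of a host in 30 of the 32 genes, 84 of them in SNHG14, the imprinted host of the Prader-Willi region on chromosome 15. The other 57 had a median distance of 2454 bp from the canonical start of their host. It names none in SNHG28 and none in GAS5, where RefSeq places 11, and RefSeq places none in SNHG27. Hosts of C/D snoRNAs alone were 11 genes, hosts of H/ACA snoRNAs alone 12, hosts of both kinds 3 (SNHG12, SNHG25 and TAF1D) and hosts of a scaRNA 4 (SNHG10, SNHG20, SNHG21 and SNHG22). Of the 141 snoRNA genes, 2 were under a peak in each list, SCARNA17 in SNHG22 and SNORD104 in SNHG25, which begin 110 and 146 bp from the host's start. The 84 in SNHG14 could not be, since that host had no peak. Whether 2 is few for such short genes at these distances was not tested. Some hosts also had control peaks outside their promoter windows, with 3 in SNHG27 and 2 each in SNHG16 and SNHG5.

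The TOP-like start is shown first, because among the features searched its share in the hosts stood furthest from that of open genes. Below are 50 bases around the canonical starts of GAS5 (chr1:173867965-173868014, minus strand), SNHG29 (chr17:16439012-16439061, plus strand) and ZFAS1 (chr20:49278617-49278666, plus strand) in GRCh38, all in first exons of non-coding transcripts and the bases before them. Capitals mark the run of pyrimidines that begins at the start.
GAS5: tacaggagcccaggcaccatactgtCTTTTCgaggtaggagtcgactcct
SNHG29: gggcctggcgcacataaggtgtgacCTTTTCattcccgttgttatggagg
ZFAS1: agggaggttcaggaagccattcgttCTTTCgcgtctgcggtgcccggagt

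A C at the canonical start followed by 4 pyrimidines was found in 5 of 32 hosts (15.6%, 95% Wilson interval 6.86 to 31.8), namely SNHG12, GAS5, TAF1D, SNHG29 and ZFAS1. The same pattern was at the canonical start of 4.40% of the 19422 genes with a control promoter peak, of 3.16% of the 4845 lncRNA genes with one, and of 20.6% of 204 other snoRNA hosts. Over any annotated start it was found in 19 of the 32 hosts (59.4%) against 15.8% of the genes with a control peak, but the hosts have a median of 9.50 annotated starts and genes as a whole 1, so the shares over any start do not compare like with like. Intervals of shares of genes cover counting error only.

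Of 6 promoter motifs searched on both strands in the 300 bases from 250 before to 50 after the canonical start, the MYC and MYCN E-box CACGTG was in 6 of 32 hosts (18.8%, interval 8.89 to 35.3): GAS5, SNHG4, SNHG7, SNHG9, SNHG25 and SNHG30. It was in 9.10% of genes with a control promoter peak and in 5.68% of all genes. The CRE TGACGTCA, the site of CREB factors, was in GAS5 and SNHG11 (6.25%, against 3.08% of genes with a control peak). TATAAA was in 12.5% against 6.47%. The GC box GGGCGG was in 68.8% of hosts against 66.0%, CCAAT in 37.5% against 35.2% and the ETS site CCGGAAG in 12.5% against 16.5%. For each of the 6 motifs the share of open genes lay inside the hosts' interval. A match is a string of letters in a window and does not show that a factor binds there.

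The promoters of SNHG8 and DANCR, host of SNORA24 and host of SNORA26, are shown because their peaks differed most between the lists in pileup scaled to the background of the list, a measure explained further on. They are given for GRCh38 as chr4:118278458-118278757 and chr4:52712251-52712550, both on the plus strand and both 300 bases long, with GC boxes (GGGCGG or its reverse CCGCCC) and CCAAT boxes (CCAAT or its reverse ATTGG) in capitals.
SNHG8: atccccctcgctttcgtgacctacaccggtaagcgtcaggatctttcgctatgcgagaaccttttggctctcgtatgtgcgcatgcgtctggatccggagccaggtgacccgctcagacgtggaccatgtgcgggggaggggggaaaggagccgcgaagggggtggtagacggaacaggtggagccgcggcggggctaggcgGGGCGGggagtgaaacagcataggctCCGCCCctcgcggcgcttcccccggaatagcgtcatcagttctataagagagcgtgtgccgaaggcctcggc
DANCR: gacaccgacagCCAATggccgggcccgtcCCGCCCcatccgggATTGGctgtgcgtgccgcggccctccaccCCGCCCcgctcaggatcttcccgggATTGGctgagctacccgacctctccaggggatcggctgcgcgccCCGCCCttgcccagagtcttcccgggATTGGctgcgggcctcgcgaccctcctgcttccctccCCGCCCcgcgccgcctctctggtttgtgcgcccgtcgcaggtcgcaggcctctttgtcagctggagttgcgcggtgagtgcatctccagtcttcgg
In DANCR 4 CCAAT boxes, whose first letters lie at -239, -207, -153 and -83 from the start, alternate with 4 GC boxes at -221, -178, -109 and -46. SNHG8 has GC boxes at -48 and -22 and no CCAAT box in this window. Both promoters are rich in G and C (64.0% for SNHG8 and 71.0% for DANCR), above the median of the 32 hosts, 60.8%, which itself lies between those of all genes (50.7%) and of protein-coding genes (63.7%).

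Nearly all hosts were open in both conditions. A promoter peak is a peak that overlaps the stretch from 1 kb before to 1 kb after any annotated start of the gene by at least 1 bp. In control, 31 of 32 hosts had one (96.9%, interval 84.3 to 99.4), and in sgSNHG1 29 of 32 (90.6%, interval 75.8 to 96.8). Over all genes the shares were 31.3% in control and 29% in sgSNHG1. For lncRNA genes they were 25.8% and 23.3%, and for protein-coding genes 66.3% and 62.1%. Since a gene with many starts has more windows, lncRNA genes with 5 or more starts are the nearer comparison, and 50% of these 2189 genes had a peak in control and 45.1% in sgSNHG1. The 180 other protein-coding snoRNA hosts (91.7% and 88.3%) came near to the genes described here, while 24 other lncRNA hosts (58.3% and 54.2%) lay lower, with an interval of 38.8 to 75.5 in control that does not reach that of the 32 hosts. These 24 genes have a median of 2.5 annotated starts against 9.50 for the 32 hosts, and the part of that difference was not tested. With the start of the gene record alone, 29 of the 32 hosts (90.6%) had a control peak and 27 (84.4%) an sgSNHG1 peak, against 28.2% and 25.9% of all genes.

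**Figure D1:**
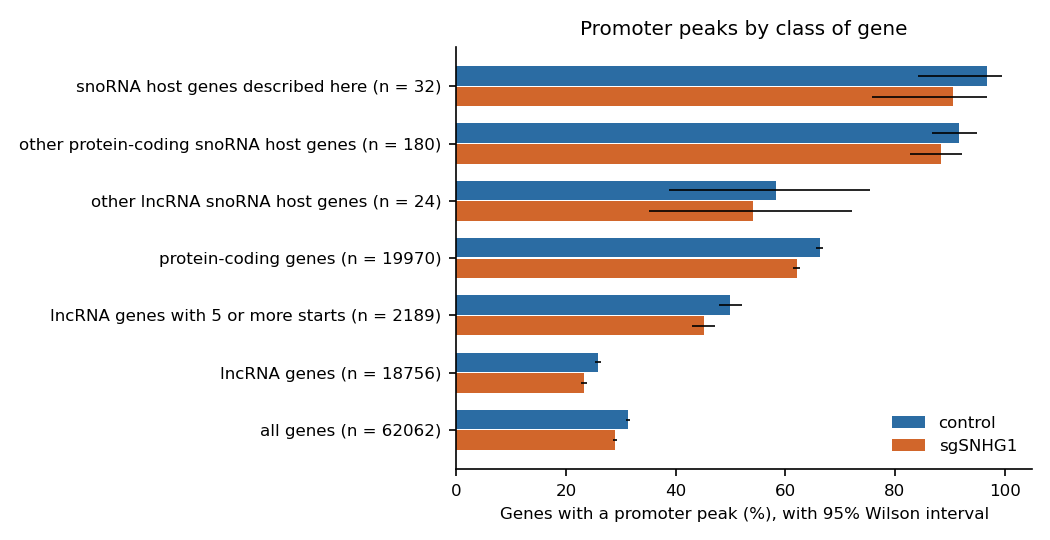
Share of genes with a promoter peak (x axis, percent of genes in the class) in the control list (blue) and the sgSNHG1 list (orange), with 95% Wilson intervals as bars, for the 32 snoRNA hosts and 6 other classes of gene (y axis, number of genes in parentheses; all genes include the hosts). The 32 hosts reached 96.9% and 90.6%, against 50% and 45.1% of lncRNA genes with 5 or more starts.

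The height of a peak is given as fold enrichment, the fragment pileup at the summit over the local background of the same list. Over the 31 open hosts the median control fold enrichment was 8.87 (quartiles 7.09 and 10.1), against 7.45 over all genes with a control peak, and in sgSNHG1 it was 7.97 against 7.18. Of the 29 hosts with a peak in both lists, 21 lay above the median of all open genes in control and 18 in sgSNHG1. Those medians include genes open in 1 list only, while the 29 leave out SNHG17 (3.43) and SNHG18 (4.01), both below the control median. The pileups behind these values ran from 13 to 120 fragments in control and from 9 to 102 in sgSNHG1, which sets the precision for each gene.

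SNHG10, the scaRNA host beside GLRX5, was the most accessible in control, where its fold enrichment was 12.7, and it stood at 12.8 in sgSNHG1, over pileups of 117 and 102. SNHG27 followed with 11.8 and 14.0, though its control summit was 949 bp from the nearest annotated start. SNHG21, host of SCARNA15, had 11.4 and 10.5. DANCR, named for its block on the differentiation of progenitor cells, had 11.1 and 7.94. SNHG30, host of SNORD7, had 10.9 and 12.2, while EPB41L4A-AS1, host of SNORA13, had 10.9 and 8.81. SNHG15 (10.2 and 9.20) and SNHG6 (10.2 and 10.5) came next. ZFAS1, which starts head to head with ZNFX1 and hosts 3 C/D snoRNAs, had 10.1 and 6.83, and SNHG8 had 9.92 and 6.67. Of these 10 promoters 4 were higher in sgSNHG1 and the other 6 lower, a split near that of all genes with a peak in both lists, of which 60.3% were lower. At the lower end, SNHG7 had 3.63 and 3.88 over pileups of 19 and 19, and SNHG9, which shares its promoter with the ribosomal protein gene RPS2, had 4.82 and 5.18.

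**Figure D2:**
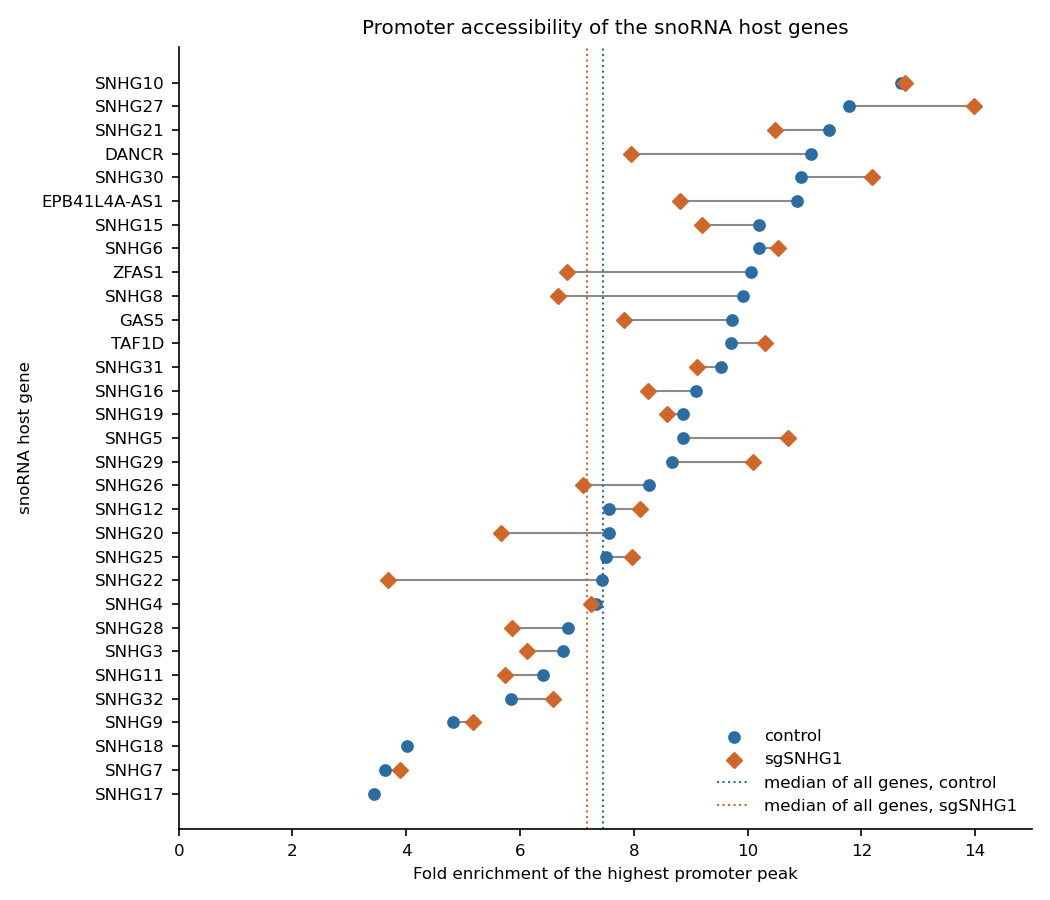
Fold enrichment of the highest promoter peak (x axis, ratio of pileup to local background, from 0) for the 31 hosts with a peak (y axis, ordered by the control value), in control (blue circles) and sgSNHG1 (orange diamonds). Grey lines join the lists, and dotted lines mark the medians over all genes with a peak, 7.45 and 7.18. SNHG17 and SNHG18 have a control point only, and SNHG22, SNHG8 and ZFAS1 have the longest lines to the left.

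The peaks of most hosts sat on annotated starts. The median distance from the control summit to the nearest start was 29 bp, and for 29 of the 31 open hosts it was within 250 bp. A short distance is favoured by the definition of a promoter peak and by the many starts of the hosts (median 9.50, against 1 for all genes). The distance over all open genes was not computed, so it is not shown to be particular to the hosts. For 9 hosts a protein-coding gene starts within 1 kb of the canonical start in the opposite direction: GAS5 with ZBTB37, SNHG31 with BARD1, SNHG18 with SEMA5A, SNHG10 with GLRX5, SNHG9 with RPS2, SNHG19 with TRAF7, SNHG22 with ACAA2, ZFAS1 with ZNFX1 and TAF1D with a gene that has no symbol. The peak then belongs to both genes, except for TAF1D, whose highest peak lies at another start. For SNHG3 with RCC1 and SNHG4 with MATR3 the neighbouring coding start is on the same strand. Accessibility of such a shared region cannot be assigned to the host or to its neighbour. Hosts with a divergent coding start, TAF1D entered by its highest peak, had a median control fold enrichment of 9.53 and the 22 other open hosts 8.47, with quartiles that overlap (7.43 to 9.72 and 6.97 to 10.2).

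For 4 hosts the summit of the highest control peak was more than 1 kb from the canonical start. That of SNHG12 was 1019 bp downstream, near an alternative start, and neither its control nor its sgSNHG1 peak covered the canonical start that carries the TOP-like letters. The summit of SNHG20 was 1938 bp downstream, within 1 kb of a start of SEC14L1, and the canonical start of SNHG20 had no peak within 1 kb in either list. The summit of SNHG27 was 46927 bp downstream and 949 bp from the nearest annotated start, so this peak reaches only the outer part of a 1 kb window. TAF1D, a subunit of the RNA polymerase I factor SL1, had its highest peak at -42759 bp, upstream at a start near that of MED17, with fold enrichments of 9.70 and 10.3. The peak at the canonical start of TAF1D, which C11orf54 shares, had 9.40 in control and 9.78 in sgSNHG1 over pileups of 85 and 59, so the choice of start moved these values by less than the counting error.

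**Figure D3:**
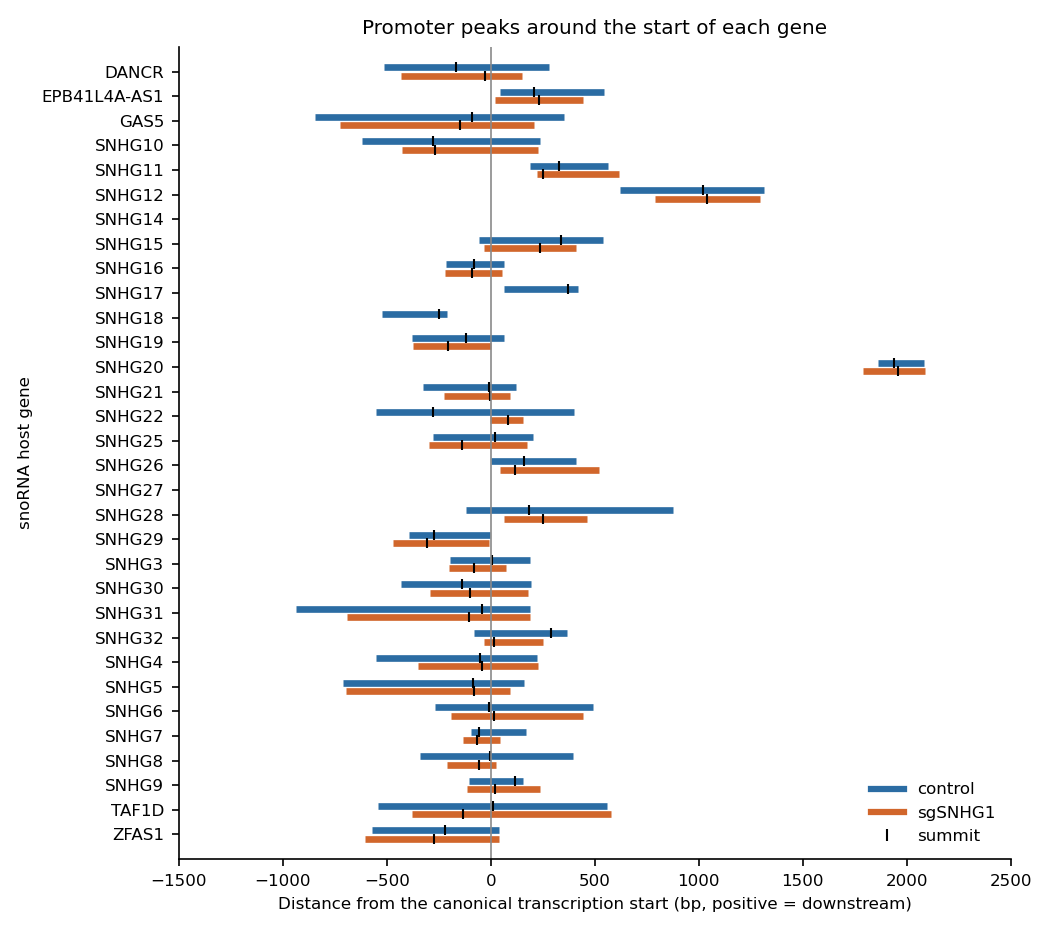
Extent of each promoter peak relative to the canonical start (x axis, bp, downstream positive) for the 32 hosts (y axis), in control (blue) and sgSNHG1 (orange), with the summit as a black tick. SNHG14 had no peak, and the peaks of SNHG27 and the upstream peak of TAF1D lie outside the range drawn. Of the 29 hosts with a peak in both lists, 23 had a narrower highest peak in sgSNHG1.

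As a group the hosts did not differ between the lists by more than genes in general did. In all 29 hosts with a peak in both lists the highest peaks overlapped by at least 1 bp, here called the same site. That leaves room for shifted summits, as in SNHG22 (-278 bp from the canonical start in control, 83 bp in sgSNHG1). Most hosts had little choice of peak, since 29 had exactly 1 control promoter peak and 27 exactly 1 in sgSNHG1. The share over all genes was not computed. The log2 ratio of sgSNHG1 to control fold enrichment had a median of -0.07 over these 29 hosts and -0.07 over the 17193 genes with a peak in both lists. It was lower than 0 in 17 hosts (58.6%), beside 60.3% of all genes, and higher in 12. A log2 ratio of -0.5 or less was found in 3 hosts, SNHG22, SNHG8 and ZFAS1, and of 0.5 or more in 0, beside 7.67% and 2.09% of all genes. Not 1 host differed in fold enrichment by more than 2 counting standard errors in either direction, beside 1.48% of all genes that were lower and 0.617% that were higher by that measure. The median counting standard error of a host was 0.32 on the log2 scale, so a log2 ratio within 2 such errors of 0 was not detectable at this depth. The peaks were narrower in sgSNHG1 in 23 of 29 hosts (79.3%) beside 83.7% of all genes, with a median log2 width ratio of -0.37 beside -0.40.

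By the kind of snoRNA hosted, the values were as follows, with few genes of each kind. The kinds follow GENCODE alone, which names no snoRNA in GAS5 or SNHG28. GAS5 (log2 ratio -0.31), where RefSeq places 11 snoRNAs, is therefore not among the C/D hosts here, and SNHG28 (-0.22) is in no kind. For the 9 C/D hosts with a peak in both lists, the log2 ratio of fold enrichment had a median of 0.04 and ran from -0.56 (ZFAS1) to 0.27 (SNHG5, host of the U50 snoRNAs, 8.87 in control and 10.7 in sgSNHG1). For the 11 H/ACA hosts the median was -0.14, with 8 lower and 3 higher. The 4 scaRNA hosts ran from -1.02 (SNHG22) to 0.01 (SNHG10), and the 3 hosts of both classes from 0.09 to 0.10. The median of the scaRNA hosts was -0.27. Differences between the kinds were not tested. SNHG3, host of the U17 snoRNAs that act in ribosomal RNA cleavage, had fold enrichments of 6.76 and 6.13, and SNHG4, host of the U19 snoRNA, 7.33 and 7.24.

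SNHG22 had the lowest ratio. The pileup at its summit was 24 fragments in the control list against 9 in the sgSNHG1 list, with fold enrichments of 7.43 and 3.68 and widths of 951 and 162 bp, with a -log10 q of 2.43 in sgSNHG1, close to the lowest in that list (2.01). The log2 ratio was -1.02 with a counting standard error of 0.56, so it lay within 2 errors of 0. The remaining sgSNHG1 peak lay over the first bases of SNHG22, while the control peak also covered the side toward ACAA2, a mitochondrial enzyme of fatty acid oxidation, as the plot of peak extents shows. In ZFAS1 the fold enrichments were 10.1 and 6.83 (log2 ratio -0.56, counting standard error 0.31) over pileups of 55 and 34, with widths of 608 and 646 bp.

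The fold enrichment divides by a local background that the peak's own neighbourhood sets, so the pileup was also scaled by the smallest background of its list, 2.20 fragments in control and 1.72 in sgSNHG1. Its log2 ratio, sgSNHG1 over control, had a median of -0.03 over the 29 hosts and -0.05 over all genes with a peak in both lists, with 15 hosts below 0. On this scale 3 hosts were lower in sgSNHG1 by more than 2 counting standard errors, GAS5, DANCR and SNHG8, and 0 were higher, beside 5.51% and 1.93% of all genes. The motifs marked in the promoters of DANCR and SNHG8 above lie under these peaks in both lists.

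GAS5, a growth arrest lncRNA that hosts C/D snoRNAs, had the highest pileup of all hosts in control. At the summit 120 fragments were counted in control and 61 in sgSNHG1, and the peak spanned chr1:173867635-173868835 in control. The local background was 11.4 in control and 6.91 in sgSNHG1, so the fold enrichments, 9.72 and 7.84 (log2 ratio -0.31, counting standard error 0.23), differed less than the scaled pileups (log2 ratio -0.62). All paired peaks within 5 Mb of GAS5, 116 without its own, stood at a median of -0.02 on that scale. A further small control peak inside GAS5, with a fold enrichment of 3.10, had no counterpart in sgSNHG1.

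DANCR and SNHG8 lie on chromosome 4, where the surroundings of both were lower in sgSNHG1. At the summit of DANCR 76 control and 22 sgSNHG1 fragments were counted, with a log2 ratio of -1.43 for the scaled pileup (counting standard error 0.35) and of -0.48 for fold enrichment. The 94 paired peaks within 5 Mb of it had a median of -0.63. A second peak inside DANCR, 9834 bp downstream of the start in control, went the same way, with pileups of 63 and 23 and fold enrichments of 11.9 and 8.83. SNHG8 had pileups of 68 and 20 and widths of 737 and 236 bp. Its log2 ratio was -1.41 for the scaled pileup (counting standard error 0.37) and -0.57 for fold enrichment, and 59 paired peaks within 5 Mb had a median of -0.59. Whether the clones hold equal copies of this stretch was not tested, and in a pileup fewer copies and less access per copy cannot be told apart.

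With the median of the surroundings subtracted, the same 3 hosts were lower by more than 2 counting standard errors, GAS5 at -0.60, DANCR at -0.80 and SNHG8 at -0.81 on the log2 scale. SNHG27 was the only host higher by that measure, at 1.10. Beside this, 2.97% of all genes were lower and 1.39% higher. The error counts fragments at the gene alone and leaves out the spread of the surroundings, and SNHG27 had only 25 paired peaks within 5 Mb. Peaks called in 1 list alone do not enter the surroundings, and how far they would move these differences was not tested.

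**Figure D4:**
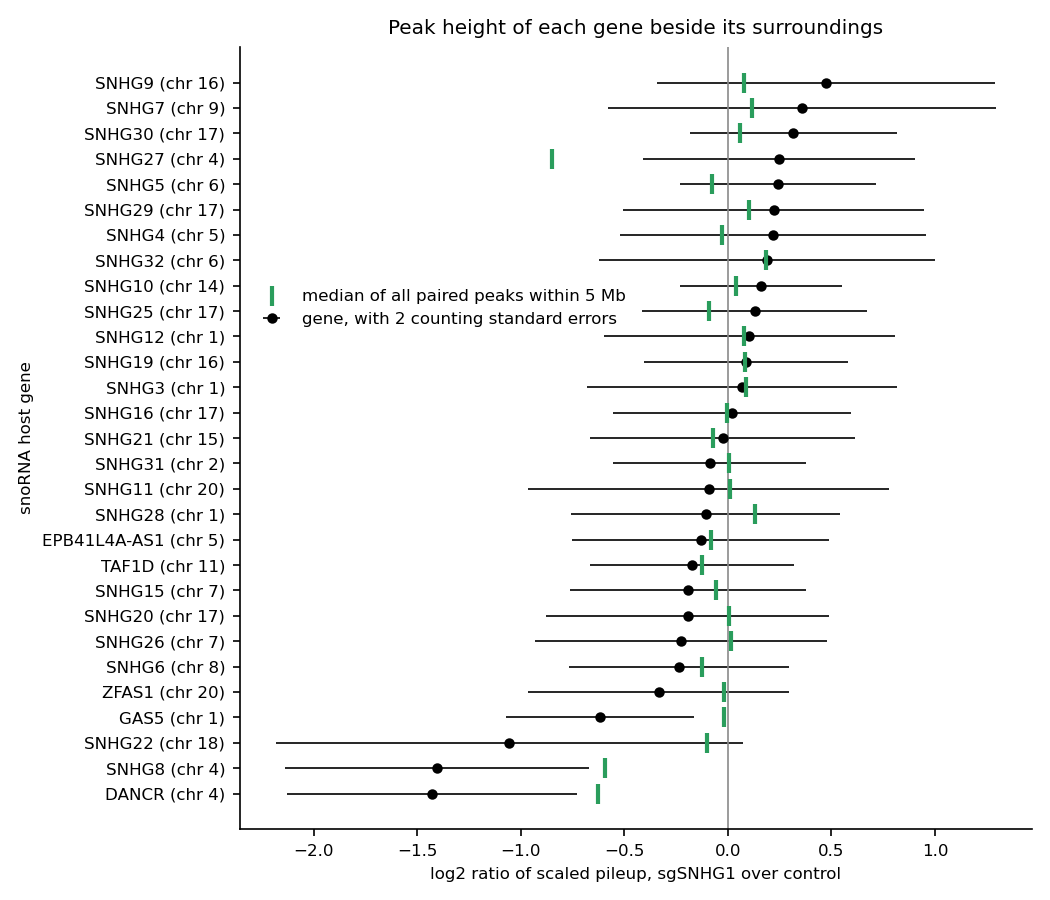
Log2 ratio of scaled pileup, sgSNHG1 over control (x axis), for the 29 hosts with a peak in both lists (y axis, with chromosome), as black points with bars of 2 counting standard errors. Green ticks mark the median over all paired peaks within 5 Mb. GAS5 (-0.62) lies below its surroundings (-0.02), DANCR and SNHG8 below surroundings that are themselves low (-0.63 and -0.59), and SNHG27 (0.25) above surroundings of -0.85.

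SNHG27 had 1 peak of like height in both lists in a region that was otherwise lower in sgSNHG1. Over the gene, 6 control peaks stood against 2 in sgSNHG1. The peak at chr4:131774246-131774747, with its control summit 949 bp from the nearest annotated start, stood at 11.8 and 14.0 in fold enrichment over pileups of 40 and 37 (log2 ratio 0.25, counting standard error 0.33). Summed over all its promoter peaks the direction turned, to a log2 ratio of -0.65. A control peak at chr4:131750555-131750835 with a fold enrichment of 10.3 over a pileup of 32 met an sgSNHG1 peak of only 4.41 over a pileup of 11. The highest control peak over the gene, chr4:131743398-131743607 with 12.5 over a pileup of 39, had no sgSNHG1 peak, and it lies outside the 1 kb windows. The paired peaks around SNHG27 stood at a median of -0.85 in scaled pileup.

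The control promoter peaks of SNHG17 and SNHG18 had no sgSNHG1 counterpart, which is 2 of the 31 open in control (6.45%) beside 11.5% of all genes with a control promoter peak. No host was open in sgSNHG1 alone, beside 4.35% of genes with an sgSNHG1 promoter peak. Both were weak in control. SNHG17, a host of SNORA71 genes, reached a fold enrichment of 3.43 over a pileup of 13 and a -log10 q of 3.03, and SNHG18, host of SNORD123, had 4.01 over a pileup of 19 and a -log10 q of 5.50. The lowest -log10 q in the control list was 2.00, so SNHG17 lay near the limit of what was called. Next to SNHG18, whose control peak spanned chr5:9545669-9545984, a further peak was present in both lists, its summit at -1487 bp from the canonical start in control and at -1497 bp in sgSNHG1, with fold enrichments of 6.06 and 7.95. It lies outside the 1 kb window, on the side of SEMA5A.

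SNHG14 was the only host with no promoter peak in either list. Across its 441754 bp and 111 annotated starts there was no peak at all in control or in sgSNHG1. The nearest summit lay 236522 bp from its canonical start in control, but that start, chr15:25193313, is far inside the gene, whose record begins at chr15:24978583. The peak nearest the canonical start lay upstream of the record in both lists. It was chr15:24956674-24956863 in control (fold enrichment 5.51) and chr15:24956258-24956853 in sgSNHG1 (5.90). SNHG14 carries the brain-expressed C/D clusters of the Prader-Willi locus and runs antisense to UBE3A. Promoter peaks of other hosts were called from as few as 13 fragments in control and 9 in sgSNHG1, and a peak too weak to be called cannot be seen in these lists.

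The other hosts differed little. SNHG31 (9.53 and 9.11), SNHG16 (9.09 and 8.25), SNHG19 (8.87 and 8.58), SNHG29 (8.67 and 10.1), SNHG26 (8.27 and 7.11), SNHG20 (7.56 and 5.66) and SNHG25 (7.51 and 7.97) had fold enrichments in control and sgSNHG1 that differed by less than 2 counting standard errors. The same holds for SNHG12 (7.57 and 8.11), SNHG28 (6.85 and 5.86), SNHG11 (6.40 and 5.73) and SNHG32 (5.83 and 6.58). Of all of these, SNHG20 was lowest with a log2 ratio of -0.42 (counting standard error 0.34). SNHG16, SNHG19, SNHG25 and SNHG31 rest on pileups of over 50 fragments in control and give the firmer values.

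The 204 other genes that host a snoRNA, 180 of them protein-coding, stood at a median of -0.09 in log2 fold-enrichment ratio over the 169 with a peak in both lists. Of these 169, 8 were lower and 2 higher by 0.5 or more, beside 7.67% and 2.09% of all genes with a peak in both lists, so such differences were not more frequent in them. Among the lower were DDX39B (-0.80), ODC1 (-0.73, counting standard error 0.27), a rate-limiting enzyme of polyamine synthesis, and the ribosomal protein genes RPL23A (-0.59) and RPL23 (-0.55). The elongation factor gene EEF1B2 (0.60, counting standard error 0.27) was higher. MEG8, the imprinted host of 40 C/D snoRNAs on chromosome 14, and MIR493HG had no promoter peak in either list, as SNHG14 had none.

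The proteins that make use of the hosts' products were described from a fixed list of 32 genes. Of the C/D core proteins, NOP56 had 4.99 and 4.05 and NOP58 11.6 and 9.40, the methyltransferase FBL a peak in control alone (3.74) and SNU13 in sgSNHG1 alone (6.67). The 4 H/ACA core genes were open in both lists, with the pseudouridine synthase DKC1 at 9.32 and 8.81. All 10 assembly genes were open in both lists, and their log2 ratios had a median of -0.05. Of 14 genes of nonsense-mediated decay and its exon junction complex, 13 were open in both and UPF1, the helicase of that pathway, in control alone (7.06). SMG6, its endonuclease, was the only gene of the list with a log2 ratio of 0.5 or more in size, at -1.09 (counting standard error 0.56), with 7.80 in control and 3.68 in sgSNHG1. The median over the 13 was 0.01, beside -0.07 over all genes.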

How the data were processed

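Per the methods and labels, reads were trimmed (cutadapt), mapped to GRCh38 (BWA) and marked for duplicates (Picard). The authors removed duplicate, multiply mapped, improperly paired, mitochondrial and blacklisted reads, and shifted read ends to the transposase cut with deepTools. They merged the 2 replicates of each group and called peaks on the merge with MACS2 in paired-end mode. Versions and the calling threshold are not given in the sources used here, and no input library is described, so the background of a peak comes from the same fragments. Merging hides any peak that rests on 1 replicate, and removing duplicates lowers the tallest peaks.

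Each deposited peak has a position, a score (a capped whole-number version of the -log10 q), a fold enrichment at the summit (a ratio to the local background, each with a pseudocount), a -log10 p, a -log10 q and the offset of the summit, all as deposited by the authors. The total number of fragments per library is not in the peak lists. Pileup and local background were solved from fold enrichment and -log10 p, within 0.001 for 47609 of 47610 control and 42682 of 42682 sgSNHG1 peaks, and the solution was tested on simulated data. Counting standard errors of log2 ratios come from both pileups and treat fragments as independent. No peak ran past a chromosome end of the GRCh38 reference, and genes, starts and snoRNAs come from GENCODE release 44, with RefSeq for a second count of snoRNAs. Sequences were read from the GRCh38 genome at the start of the Ensembl canonical transcript. Each host has the value of its highest promoter peak. The surroundings of a gene are the median over mutual best overlapping peaks of the lists within 5 Mb.

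Hosts and gene lists were chosen with earlier results of these data known. Of the cell type markers, 1 is not reported here. By rule, full values are given for hosts open in 1 list or none, past 0.5 in log2 ratio of fold enrichment or past 2 counting errors, the 10 highest in control, and the 5 added by name. Counts past 2 errors on the scaled pileup, the canonical start alone and hosts without chromosome 4 were added after values were seen. Alternatives were windows of 500 bp and 3 kb, a single start, stricter -log10 q of 5 and 10, the same site, the sum of peaks and the surroundings. Python 3.11.15, numpy 2.4.6, pandas 2.3.3 and scipy 1.17.1 were used.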

Additional observations from a re-analysis of the deposited data

How the results depend on the processing

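No paired analysis was possible because the replicates of each group were combined before peak calling and the peak lists carry no replicate, and for the same reason no replicate could be left out. The count of hosts open in control alone went from 2 to 1 with windows of 3 kb, where SNHG18 takes in the peak nearer SEMA5A, and to 3 with windows of 500 bp, where SNHG27 loses its sgSNHG1 peak. With a -log10 q of at least 5, SNHG7 was open in sgSNHG1 alone, 1 host instead of 0, since its control peak (-log10 q 4.71) misses that limit. The median log2 width ratio of the hosts was 0.11 relative to surrounding pairs, against -0.37 as reported, so by this median the hosts were not narrower than the peaks around them. The other alternatives kept the reported direction or stayed within the stated error. Hosts open in control ranged from 27 to 31 over 6 alternatives and in sgSNHG1 from 25 to 30, the median log2 ratio of fold enrichment from -0.13 to 0.02 over 10, and hosts with a lower value from 14 to 17 over 8. Without the 3 hosts on chromosome 4 that median was -0.06. Depth limits the weakest peaks most: SNHG22 rests on 9 fragments in sgSNHG1.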
